A study of Drosophila melanogaster with 6 samples.

Results

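Cyclins, the cyclin-dependent kinases (Cdks) and the proteins that switch them on or off were compared between germline stem cells and a cultured Drosophila line. The genes were named as a list: CycA, CycB, CycB3, CycD, CycE, Cdk1, Cdk2, stg, dap and fzr. A gene was measured where a probe set of the array carried its symbol and no other. This held for 6 of the 10, CycB, CycB3, CycD, CycE, Cdk2 and fzr, with 1 probe set each, among 10844 genes measured in all. CycA, Cdk1, stg and dap are not analysed here. The germline stem cells (GSC) were highly purified from ovaries mutant for bam, a gene needed for stem cell daughters to differentiate, and 3 arrays were run. The other 3 arrays hold RNA of Kc cells, an established line of embryonic origin. The bam allele, the age of the flies and the passage of the line are not given in the labels. Wild-type ovaries were not part of the arrays used.

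Cyclins bind Cdks and decide when and on what the kinase acts. CycD with Cdk4 promotes growth and cell cycle entry, CycE with Cdk2 starts S phase, and CycA, CycB and CycB3 with Cdk1 drive mitosis. The Cdc25 phosphatase encoded by stg activates Cdk1, dap encodes an inhibitor of CycE-Cdk2, and fzr encodes the Cdh1-type activator of the anaphase-promoting complex (APC/C), the ubiquitin ligase that destroys mitotic cyclins. Female germline stem cells of the fly are known for a short G1 and a long G2, and genetic work has tied both CycE and CycB to their maintenance or division.

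CycE had the largest difference of the measured genes. Its signal was 3.54-fold higher in GSC than in Kc, while CycB, CycB3, CycD and fzr were 1.30- to 1.68-fold higher and Cdk2, the kinase partner of CycE, overlapped between the groups. Levels are the authors' scaled array signals, and folds are on the scale of log2(signal + 38), where the added 38 damps dim probe sets. The groups were compared with limma, and p-values were adjusted over all probe sets. Calls required a 2-fold difference together with an adjusted p under 0.05. By this rule CycE was called higher and the other 5 were not called. The background was 11.7% of the 13966 probe sets called higher and 8.11% called lower, so 1 of 6 is close to what any probe set showed. At an adjusted p under 0.05 with any fold, 5 of the 6 genes were higher in GSC, against 20.1% of all probe sets. None was lower by either rule in the limma fit, against 14.3% of all probe sets at any fold. At an unadjusted p under 0.05, 0 of the 6 were lower. By signal, the 6 genes lay between percentiles 51.0 and 97.6 of each array, while the shares over all probe sets include dim ones. In 15 alternative fits the adjusted p was above 0.05 in 9 for fzr and 4 for CycB.

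**Figure D1:**
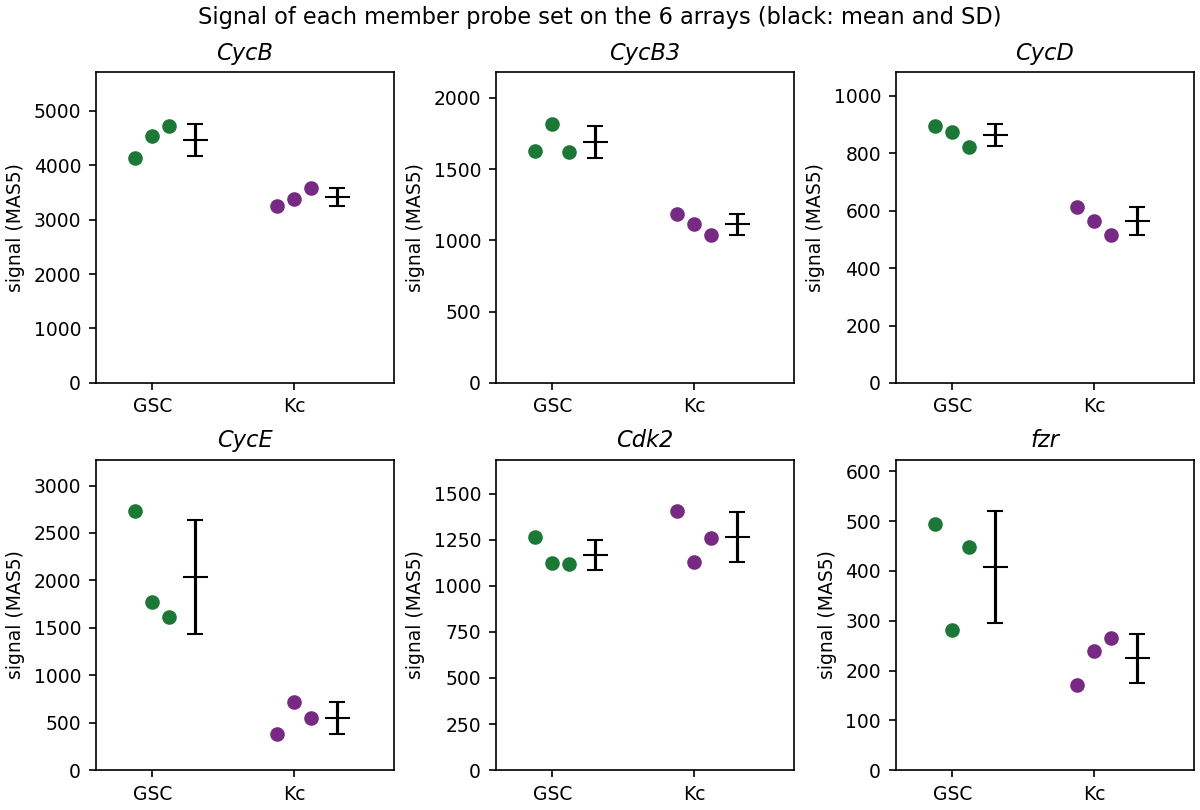
Signal of the 6 measured genes (vertical axes, authors' scaled signal, starting at 0) on the GSC arrays (green) and the Kc arrays (purple), with the mean and SD of each group in black. GSC points lie above all Kc points for 5 genes; for Cdk2 the groups overlap.

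The G1 to S regulators are described first. CycE, which with Cdk2 licenses entry into S phase, had signals of 2729, 1771 and 1616 on GSC 1 to 3 and of 384, 716.9 and 546.9 on Kc 1 to 3. Every GSC value lay above every Kc value, and the spread within each group was wide. The log2 fold was 1.82 ± 0.243 (SE, adjusted p = 0.000266, n = 3 per group), and the 95% interval of the fold ran from 2.42 to 5.18. GSC 1 was the brightest array for CycE, and without it the log2 fold was 1.60 (adjusted p = 0.00127).

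Cdk2 gave 1264, 1125 and 1116 in GSC and 1404, 1130 and 1259 in Kc. The groups overlapped, with a log2 fold of -0.11 ± 0.125 (adjusted p = 0.583). The 95% interval allowed anything from 0.765- to 1.13-fold, so a doubling of this signal in either direction lay outside it under the authors' scaling. CycE was then set against the other 5 genes within each array, a comparison added after its fold was seen to be the largest, so it describes that difference and is no independent support for it. The CycE value shifted by 1.93 more on the log2 scale than the Cdk2 value between Kc and GSC. The shift exceeded that of CycB by 1.44, of CycB3 and CycD by 1.24 each, and of fzr by 1.08. The groups did not overlap in any of the 5, and no p is given because CycE was picked for its fold.

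CycD, the partner of Cdk4 in growth and G1 progression, had signals of 896.3, 874 and 823 in GSC and 611.9, 564.9 and 515.1 in Kc. All GSC arrays were above all Kc arrays and the spread within each group was narrow. The log2 fold of 0.59 ± 0.13 had an adjusted p of 0.00555 and a 95% interval of 1.23- to 1.84-fold, below the fold minimum at the estimate and over the whole interval.

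The measured mitotic cyclins moved less than CycE. CycB, a main partner of Cdk1 in mitosis, had 4137, 4534 and 4712 in GSC and 3258, 3386 and 3582 in Kc. The groups did not overlap, and the log2 fold was 0.38 ± 0.0961 (adjusted p = 0.011, 1.12- to 1.51-fold by the 95% interval). The adjusted p was above 0.05 without GSC 2 (0.0511) and without GSC 3 (0.0519). It was also above 0.05 with scaling to the median (0.124) and with a plain variance prior (0.0732). CycB3, a B-type cyclin with roles in mitosis and in female meiosis, had 1629, 1816 and 1619 in GSC and 1186, 1112 and 1038 in Kc. All GSC values again lay above all Kc values (log2 fold 0.59 ± 0.113, adjusted p = 0.00252, 1.26- to 1.79-fold).

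fzr, whose product keeps mitotic cyclins low in G1 and in cells that leave the mitotic cycle, had signals of 494.6, 281.3 and 447.2 in GSC and 170.1, 239.3 and 264.6 in Kc. GSC 2 lay close to the highest Kc array, and the groups were apart by little. The log2 fold was 0.75 ± 0.245 (adjusted p = 0.04), and the 95% interval ran from 1.15- to 2.46-fold. The adjusted p was above 0.05 without GSC 1 (0.141), GSC 3 (0.13), Kc 1 (0.109) or Kc 2 (0.068). In all, 5 of the 6 genes had groups that did not overlap, as did 45.4% of all probe sets in one direction or the other.

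**Figure D2:**
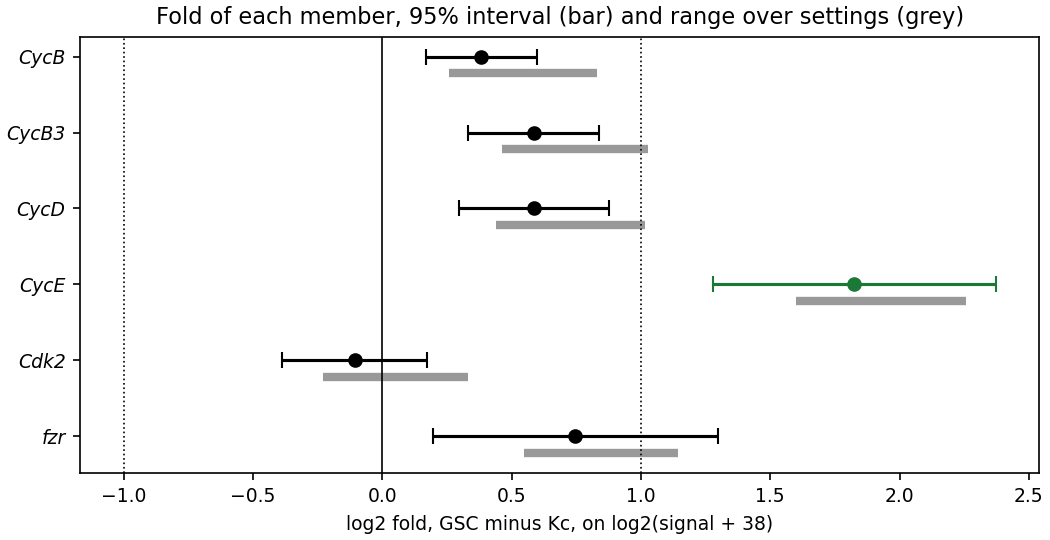
Log2 fold of each gene, GSC minus Kc (horizontal axis), with the 95% interval of the fit as the black or green bar and, in grey below it, the lowest to highest value over the main and 15 alternative fits. Dotted lines mark a 2-fold difference; CycE (green) lies beyond it in every fit and Cdk2 crosses 0.

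Facts of the arrays bear on all of these values. The deposited signals had array medians of 148.5 to 176.5. With the arrays scaled to their hybridisation controls, transcripts added at the hybridisation step, the log2 folds became 2.26 for CycE, 0.83 for CycB, 1.03 for CycB3, 1.02 for CycD, 1.14 for fzr and 0.33 for Cdk2, and 4 of the 6 genes were called higher. That scaling also moved the median of all probe sets from 0.025 to 0.32, and the share of calls that were higher from 59.1% to 80.4%. Signal ratios of the 3' to the 5' end of the control transcripts, a measure of RNA or labelling quality, were 4.22 to 4.77 in GSC and 1.76 to 1.90 in Kc for actin, and the groups were also apart for GAPDH and eIF-4a. How far the probes of each cell cycle gene lie from its 3' end is not known here, and the part of this difference in the results was not tested.

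The markers were checked against the labelled cell types. All 9 germ cell markers measured, vas and zpg among them, were called higher in GSC, with a summed signal of 36900 to 39976 against 380.4 to 500.9. All 8 hemocyte and Kc markers were called lower. Of 8 somatic ovary markers measured, peb was called higher and zfh1 lower. In GSC, tj, eya, ptc, upd1 and hh had mean signals of 13.7 to 35.2, below the pseudocount of 38, while cas had 89.2, peb 134.1 and zfh1 267.8. The summed signal was 486.4 to 745.5 in GSC and 3129 to 3555 in Kc, where zfh1 had a mean of 3082. Markers of later germline and eggshell did move with GSC: 7 of 9 were higher, against 12.5% of all genes. Their summed signal was 3704 to 4283 in GSC against 901.4 to 1344. The 7 were osk, bcd, ndl, Vm26Aa and the yolk genes Yp1, Yp2 and Yp3. The others, Cp36 (log2 fold 0.80) and grk (-0.39), were not called. Which cells gave these transcripts, and the part of these markers in the cyclin values, was not tested. In RNA from many cells, more cells in a phase and more RNA per cell cannot be told apart.

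The genes that surround the cyclins were followed in 6 lists with 92 measured genes of 108. Of these, 24 were higher in GSC, 3 lower and 65 neither, against 12.5% of all genes higher and 8.02% lower. With dim probe sets left out, 21 of 86 list genes were called higher, against 1202 of 6983 probe sets. The lists were chosen with earlier results of these data known. The median log2 fold was 0.41, and it was 0.043 over all genes. By list, in the order below, the share called higher was 41.2%, 38.5%, 36.8%, 16.7%, 15.4% and 5.56%. The last 3 lists were thus near or below the share of all genes.

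**Figure D3:**
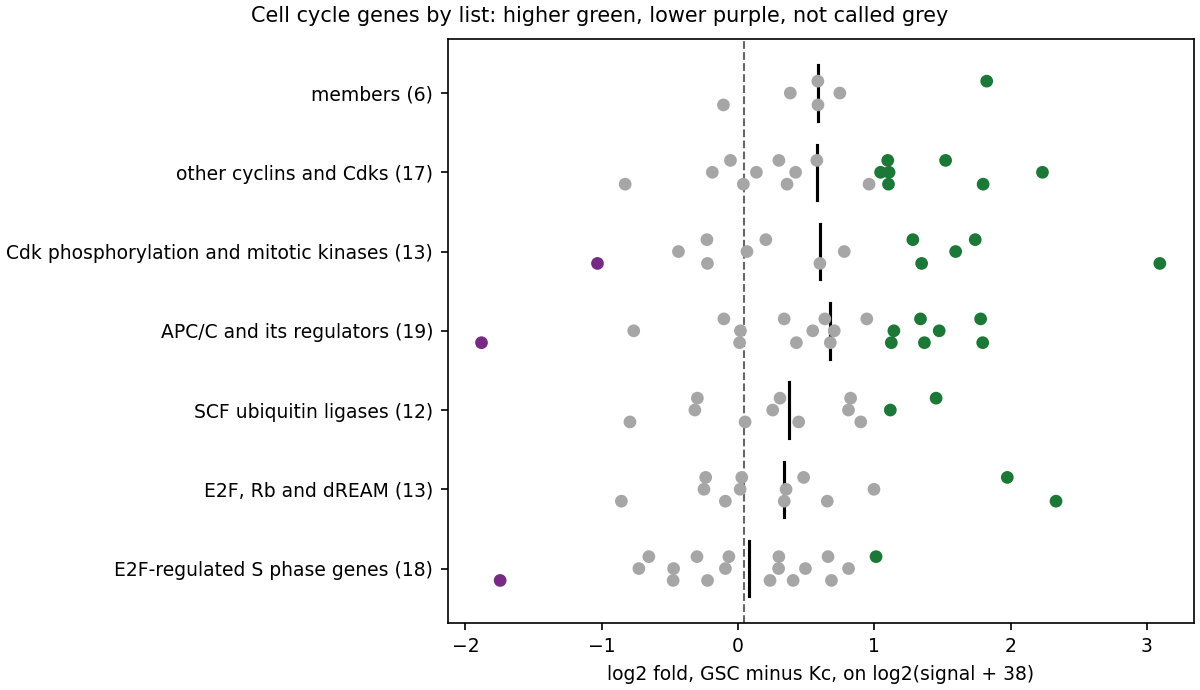
Log2 fold of each gene, GSC minus Kc (horizontal axis), for the 6 measured genes (labelled members) and the 6 lists of related genes, with the number measured in brackets. Green points were called higher, purple lower, grey neither; black bars are list medians and the dashed line the median of all 10844 genes.

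Other cyclins, Cdks and Cdk-binding subunits were called higher in 7 of 17 cases (41.2%) and lower in 0, against 12.5% and 8.02% of all genes. The median log2 fold was 0.58. At any fold, 12 were higher and 1 lower at an unadjusted p under 0.05, and 8 and 1 at an adjusted p under 0.05. Of all probe sets, 20.1% and 14.3% were higher and lower by the adjusted rule. CycJ, a cyclin of the fly ovary and early embryo, had 720.8 ± 190.9 in GSC and 121.4 ± 27.5 in Kc (SD, n = 3), a log2 fold of 2.23 ± 0.232 (adjusted p = 5.1e-05). Eip63E, a Cdk of the L63 type, rose by 1.80 and Cks85A, a small Cdk-binding protein gene, by 1.52. Its paralog Cks30A, which acts with Cdk1 in female meiosis and the early embryo, had 962.5 ± 110.5 against 935.6 ± 98.4 and was not called (log2 fold 0.039, adjusted p = 0.874). Cdk4, the partner of CycD, had 1049 ± 84 against 810.5 ± 85.1, a log2 fold of 0.36 (adjusted p = 0.0613). Cdk7, the Cdk-activating kinase, was not called either (-0.19, adjusted p = 0.415). Cdk8 of the Mediator complex was called at 1.11 (adjusted p = 0.0356), but 9 of its 15 alternatives lost the call, among them the fits without GSC 1, GSC 2, GSC 3, Kc 2 or Kc 3, with adjusted p from 0.0506 to 0.139.

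Genes that set Cdk phosphorylation or act beside it in mitosis were higher in 5 of 13 cases and lower in 1, with a median of 0.60. These are 38.5% and 7.69%, against 12.5% and 8.02% of all genes. At an adjusted p under 0.05 with any fold, 7 were higher and 2 lower, against 20.1% and 14.3% of all probe sets. twe, the second Cdc25 phosphatase of the fly, known for meiosis and the early embryo, had 443.1, 333.3 and 277 in GSC and 92.4, 65.8 and 73.5 in Kc. Every GSC array was well above every Kc array (log2 fold 1.74 ± 0.248, adjusted p = 0.000376). rux, which encodes an inhibitor of CycA-Cdk1, had 817.5 ± 76.4 against 246.4 ± 44.1 (log2 fold 1.60 ± 0.167, adjusted p = 5.12e-05). An activator and an inhibitor of Cdk1 were thus both higher, while stg, Wee1, Myt1 and polo were not measured. The checkpoint kinase gene lok rose by 3.09 and tws, a regulatory subunit gene of the phosphatase PP2A that opposes Cdk1, by 1.35. The kinase gene gwl, whose product restrains that phosphatase in mitosis, fell by 1.03 on the log2 scale, from 1928 ± 344 in Kc to 930.3 ± 208 in GSC. With scaling to the hybridisation controls gwl had -0.59 (adjusted p = 0.164) and was not called. The call also fell below the fold minimum without GSC 3 (-0.84), without Kc 2 (-0.90) and with a pseudocount equal to the median signal (-0.94). trbl, which promotes destruction of Cdc25, had 1172 ± 27.6 against 1387 ± 180 and was not called (-0.23, adjusted p = 0.204).

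Of 19 genes of the APC/C and its regulators, 7 were higher and 1 lower, with a median of 0.68. These are 36.8% and 5.26%, against 12.5% and 8.02% of all genes. At an adjusted p under 0.05 with any fold, 11 were higher and 2 lower, against 20.1% and 14.3% of all probe sets. The subunit genes Cdc27 (912.5 ± 38.8 in GSC against 242.6 ± 79.5, log2 fold 1.79) and mr (844.1 ± 102 against 218.4 ± 22.1, 1.78) rose, as did the spindle checkpoint kinase gene Bub1 (1.48). The ubiquitin-conjugating enzyme gene vih, which feeds ubiquitin to the complex, moved the other way. It had 483.9, 612.7 and 573.9 in GSC and 2179, 2147 and 2112 in Kc, a log2 fold of -1.88 ± 0.124 (adjusted p = 2.37e-06), and every GSC array was far below every Kc array.

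The activators of the complex that share a role with fzr can be set beside it. fzy, the Cdc20-type activator of mitosis, had a log2 fold of 0.64 ± 0.119 (adjusted p = 0.00213) and was below the fold minimum, as fzr was. The female meiotic activator cort had 201 ± 24.5 against 72.6 ± 20.2 (1.12, adjusted p = 0.00828), and the call was lost without Kc 2 (0.96) and with a pseudocount equal to the median signal (0.63). Rca1, an inhibitor of the complex that protects CycA, had 817 ± 61.9 against 352.6 ± 68.9 (1.14 ± 0.168, adjusted p = 0.00049), and was below the minimum without Kc 1 (0.996), with quantile normalization (0.993) and with a pseudocount equal to the median signal (0.93).

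SCF and related cullin ligases, which destroy CycE and other G1 regulators, were called higher in 2 of 12 cases (16.7%) and lower in 0. Over all genes, 12.5% were called higher and 8.02% lower. At any fold, 7 were higher and 3 lower at an unadjusted p under 0.05, and 5 and 1 at an adjusted p under 0.05. The adjusted rule gave 20.1% higher and 14.3% lower over all probe sets. The list had a median log2 fold of 0.38. SkpA, the adaptor gene of the SCF, had 8069 ± 161 against 2961 ± 564 (log2 fold 1.45 ± 0.137). Cul4 rose by 1.12, a call lost without Kc 1 (0.94) and with scaling to the median (0.995). ago, the F-box protein gene that marks CycE for destruction, had 502.7, 573.2 and 553.2 in GSC and 1005, 882.2 and 1022 in Kc. All GSC arrays were below all Kc arrays, and the log2 fold of -0.79 ± 0.131 (adjusted p = 0.000935) was short of the fold minimum.

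The E2F and Rb genes, which control transcription of CycE and of S phase genes, were called higher in 2 of 13 cases and lower in 0. These are 15.4% and 0%, against 12.5% and 8.02% of all genes. At any fold, 7 were higher and 2 lower at an unadjusted p under 0.05, and 5 and 1 at an adjusted p under 0.05. By the adjusted rule 20.1% of all probe sets were higher and 14.3% lower. The list had a median log2 fold of 0.34. Rbf, the Rb-type repressor of E2F, had 322.6, 272.1 and 275.6 in GSC and 13.7, 65.2 and 13.4 in Kc. The groups were far apart (log2 fold 2.33 ± 0.333, adjusted p = 0.000411), and because the Kc signals lie near the low end the log2 fold ranged from 1.24 to 3.59 over the alternatives. l(3)mbt, a gene tied to the Rb-containing repressor complexes and to keeping germline genes silent in somatic cells, rose by 1.98 ± 0.126. The activator gene E2f1 overlapped between the groups at 810 ± 143 against 858.9 ± 55.3 (-0.093, adjusted p = 0.707). The repressor gene E2f2 had 977.9 ± 128 against 1810 ± 312 (-0.86, adjusted p = 0.00195), below the fold minimum, and was called lower without Kc 1 (-1.0).

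S phase genes known as E2F targets went both ways, with 1 of 18 called higher and 1 called lower. This is 5.56% each way, against 12.5% and 8.02% of all genes, and the median log2 fold was 0.084. Cdc6, which loads the replicative helicase, had 1247, 1252 and 1229 in GSC and 660.6, 497.8 and 645.2 in Kc (log2 fold 1.01 ± 0.139, adjusted p = 0.000303), a call lost without Kc 2 (0.89), with quantile normalization (0.905), with scaling to the median (0.89) and with a pseudocount equal to the median signal (0.89). The thymidylate synthase gene Ts fell by 1.75 on the log2 scale, from 2741 ± 300 in Kc to 790.3 ± 81.5 in GSC (adjusted p = 5.34e-06). At an adjusted p under 0.05 with any fold, 5 of the 18 were higher and 5 lower, against 20.1% and 14.3% of all probe sets. The groups did not overlap for 15 of the 18, against 45.4% of all probe sets in one direction or the other. By signal, the 18 lay between percentiles 71.1 and 98.9 of each array, while these shares over all probe sets include dim ones. CycE, itself a known E2F target, had a larger log2 fold than each of the 18, which were not tested against it.

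**Figure D4:**
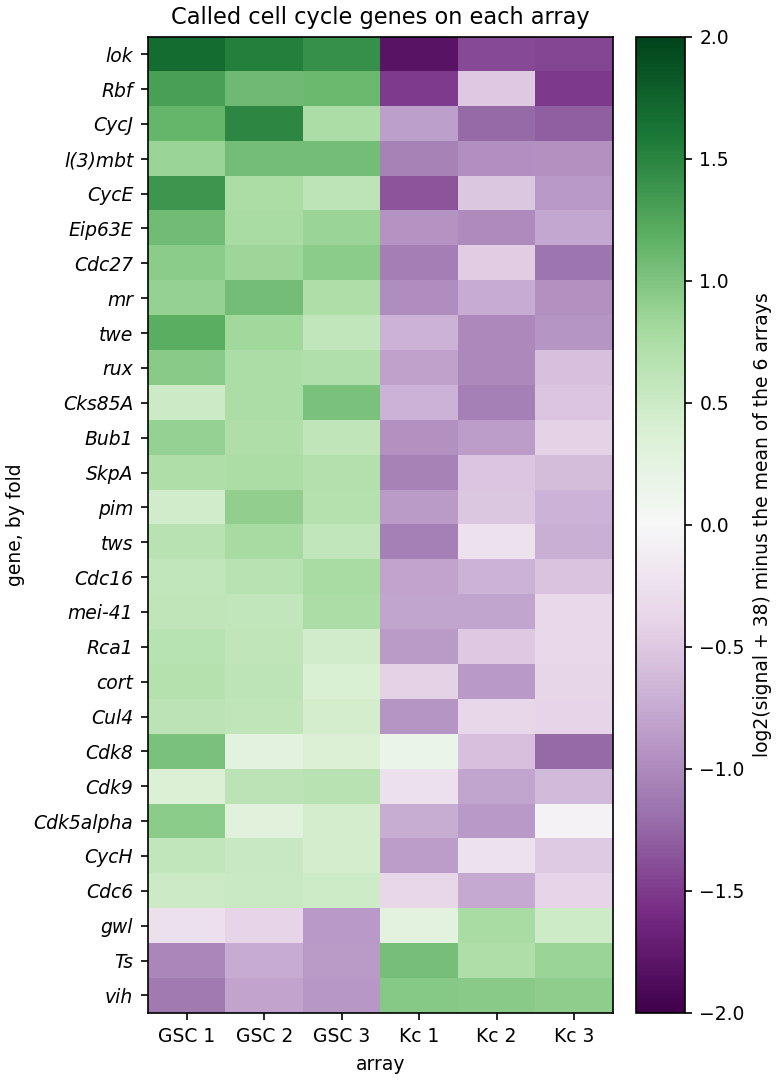
Colour shows log2(signal + 38) minus the mean over the 6 arrays, for CycE and the 27 called genes of the 6 lists (rows, ordered by log2 fold) on each array (columns). Green is above and purple below the gene's mean; lok is at the top and vih at the bottom, and for Cdk8 the Kc arrays differ among themselves.

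The profiles most like that of CycE were those of the kinase gene Ack, of DIP2 and of CG34310. Their distances from CycE over the 6 arrays, after centring each probe set on its own mean, were 0.212, 0.214 and 0.256 on the log2 scale, the smallest among 12442 probe sets. Like CycE, each was brightest on GSC 1 and dimmest on Kc 1, with log2 folds of 1.81, 1.85 and 1.85. This likeness follows from how they were chosen.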

How the data were processed

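RNA of 3 GSC and 3 Kc samples was labelled with an Enzo kit, per the labels, and measured on 1-colour arrays. The authors deposited 1 linear intensity per probe set and array, and MAS5 is named in the submitters' processing notes, with version and settings not given in the sources used here. A mean trimmed by 2% at each end was near 500 on all 6 arrays, so no second normalization was applied. Precision is limited by the number of arrays. No column was without a sample (0).

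The 44 control probe sets were left out, leaving 13966. Single gene symbols came from the platform annotation (12443 probe sets; 327 had several), checked by identifier against the RefSeq table, which changed 0. Intensities were taken as log2(signal + 38), 38 being the 25th percentile of all values, so folds of dim probe sets are understated. GSC and Kc were compared with limma 3.58.1 in R 4.3.3 (lmFit, eBayes with trend and robust estimation, two-sided), adjusted by Benjamini-Hochberg over all 13966, and tested on simulated data. The labels do not say whether a group's arrays had separate biological sources, so the p-values rest on a spread that may be technical. For list genes with several probe sets, the one with the highest mean log2 value was used. Promoter motifs were planned and are not analysed here.

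The genes and lists were chosen with earlier results of these data known. Named from each list were the 4 called genes with the largest folds, the largest against the list's main direction, and key genes listed by name. Comparisons within arrays and the pairs of transcriptional cyclins and Cdks were added after the values were seen. Same-numbered GSC and Kc arrays did not deviate together (correlations of -0.03, 0.036 and -0.007 across probe sets), so no pairing was used. Alternatives covered the pseudocount, a floor, normalization, leaving out dim probe sets or each array in turn, a plain variance prior, a block for the replicate number, the fold minimum and, for lists, the mean over probe sets.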

Additional observations from a re-analysis of the deposited data

How the results depend on the processing

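CycE was called higher in each of its 15 alternative fits (log2 fold 1.60 to 2.26, adjusted p 2.93e-06 to 0.0157). With the fold minimum at 4 it was not, since its fold is 3.54. CycB, CycB3, CycD and fzr stayed positive in all 15. Their adjusted p was above 0.05 in 4 fits for CycB, 9 for fzr and 0 for CycB3 and CycD. The sign of Cdk2 turned with scaling to the hybridisation controls (0.33), and the cause was not tested. With that scaling 4 of the 6 genes were called higher in place of 1, and 39 of the 92 list genes in place of 24. By construction a fold minimum of 1.5 raised these to 4 and 38, with 9 lower in place of 3, and a minimum of 4 left 0 and 3, with 0 lower. Leaving out an array gave 1 of the 6 genes higher each time, 20 to 26 list genes higher and 2 to 4 lower. With the replicate number as a block, CycE had a log2 fold of 1.82 (adjusted p = 0.00217), and no call of the 6 genes or of a list gene changed. Over all probe sets the 1633 higher and 1132 lower calls became 956 and 734 with the pseudocount set to the median signal, 2810 and 685 with hybridisation control scaling, 2528 and 1739 with a minimum of 1.5 and 395 and 375 with a minimum of 4. Scaling to the median gave 1398 and 1312, and quantile normalization 1438 and 1241. Dim signals have no stated background, so folds against signals below the pseudocount, such as Rbf in Kc, rest on it.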

Other observations

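Cyclins and Cdks that act mainly in transcription were also measured, named here after their values were seen. In the Cdk-activating and TFIIH module, CycH had 2679 ± 138 in GSC and 1296 ± 272 in Kc (SD, n = 3; log2 fold 1.05), a call lost without Kc 1 (0.88), with scaling to the median (0.92) and with the pseudocount at the median (0.98), while its partner genes Cdk7 (-0.19) and Mat1 (0.42) were not called. Cdk9, the elongation kinase gene, had 2179 ± 235 against 1002 ± 203 (1.10), a call lost without Kc 2 (0.99) and with scaling to the median (0.98), and its partner CycT had 0.58 (adjusted p = 0.059). CycK, a partner of Cdk12, had 1687 ± 111 against 3022 ± 126, which is -0.83 on the log2 scale (adjusted p = 0.00014) and short of the minimum, and Cdk12 had 0.13 (adjusted p = 0.645). Eip63E was higher, whereas CycY, which activates it, overlapped between the groups at 620.2 ± 60.6 against 647.7 ± 83.5. The differences between partners were not tested.

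The chromosome passenger gene borr had probe sets that disagreed: the brighter had a log2 fold of -0.44 (adjusted p = 0.0194) and the dimmer 1.05 (adjusted p = 0.00599). Both tws probe sets were called higher (1.35 and 1.52).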
